A study of Mus musculus with 3 samples.

Results

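Ciliated ependymal cells, the epithelium that lines the cerebral ventricles, were picked from single-cell transcriptomes of a mouse glioblastoma by the number of unique molecular identifiers (UMIs, each standing for 1 captured mRNA molecule) of 5 cilium genes. A cell of the CD45- sort was counted as ependymal if Tmem212, Ccdc153, Rsph1, Dynlrb2 and Foxj1 together gave at least 4 UMIs, human EGFR gave 0, and the choroid plexus genes Kl, Folr1, Clic6, Kcnj13 and Prlr together gave at most 2. Of 20811 deposited cells, 17894 passed the quality limits (at least 500 UMIs and 500 genes, at most 20% of UMIs from mitochondrial genes), 6676 of them in the CD45- sort, and 110 met the rule.

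The tumors were started in the striatum by a lentivirus carrying Cre (iCre) into adult mice of a mixed background with a Cre-conditional human EGFR transgene, a conditional luciferase reporter and Cdkn2a-/- alleles, so every tumor combined human EGFR overexpression with loss of Cdkn2a, among other alleles. Brains without the cerebellum were harvested at 3 tumor stages, early, medium and large (called late here), and viable CD45+ and CD45- cells were sorted and run by inDrop droplet sequencing. Early samples pooled mice, per the methods, and each stage was 1 tumor sample in the library annotation, so stages were compared without a test. The deposited samples are the 3 sequencing runs, each a mixture of libraries of all 3 stages and both sorts. The 12 CD45- libraries, 4 for each stage and spread over 3 sequencing runs, are technical repeats of those 3 samples. All 3 groups carry the same alleles, also in cells that the virus did not reach, and tumor-free brain was not analysed here.

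Ependymal cells beat tufts of motile cilia that move cerebrospinal fluid over the ventricle wall. Each cilium is a ring of doublet microtubules around a central pair, driven by dynein arms, coordinated by radial spokes and nexin links, and built by intraflagellar transport, and the transcription factor Foxj1 and members of the Rfx family switch its genes on. Ependymal cells share an origin in radial glia with astrocytes, and border the choroid plexus epithelium, the secretory tissue that produces cerebrospinal fluid and bears its own cilia.

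The upstream sequences of 5 genes that carry the ependymal readout are shown here, because genes of the motile cilium were higher in these cells than in both comparison gates and 2 families of factors are known to act on them. Each line is 200 bases upstream of the RefSeq start site (GRCm38.p6), from position -241 to position -42 and read on the gene's own strand. Capitals mark the half-site of the X-box bound by Rfx factors (GTTGCC) and a forkhead motif (TGTTTA). Tmem212, Ccdc153 and Dynlrb2 belong to the selecting genes, and Fam183b and Mlf1 are cilium genes that the rule did not use.
Tmem212 (chr3:27896410-27896609, minus strand): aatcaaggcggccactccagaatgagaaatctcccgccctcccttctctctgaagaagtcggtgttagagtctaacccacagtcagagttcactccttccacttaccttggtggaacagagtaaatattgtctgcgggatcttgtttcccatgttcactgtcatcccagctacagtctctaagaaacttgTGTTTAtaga
Ccdc153 (chr9:44240436-44240635, plus strand): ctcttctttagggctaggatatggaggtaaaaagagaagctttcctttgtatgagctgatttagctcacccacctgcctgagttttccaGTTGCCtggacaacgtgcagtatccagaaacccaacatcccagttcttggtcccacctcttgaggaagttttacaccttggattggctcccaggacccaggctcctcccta
Dynlrb2 (chr8:116504774-116504973, plus strand): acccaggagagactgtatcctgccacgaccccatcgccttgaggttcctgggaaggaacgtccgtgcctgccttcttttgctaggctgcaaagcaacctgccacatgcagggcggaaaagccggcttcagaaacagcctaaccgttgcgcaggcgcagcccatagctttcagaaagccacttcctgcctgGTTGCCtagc
Fam183b (chr11:58802002-58802201, minus strand): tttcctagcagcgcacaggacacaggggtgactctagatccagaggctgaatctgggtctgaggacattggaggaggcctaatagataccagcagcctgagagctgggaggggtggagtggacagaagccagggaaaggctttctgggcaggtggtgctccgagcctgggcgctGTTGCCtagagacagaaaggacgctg
Mlf1 (chr3:67373856-67374055, plus strand): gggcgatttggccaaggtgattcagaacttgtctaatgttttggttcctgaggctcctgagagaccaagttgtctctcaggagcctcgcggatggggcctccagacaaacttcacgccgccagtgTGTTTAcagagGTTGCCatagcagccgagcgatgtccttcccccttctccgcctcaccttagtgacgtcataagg
The half-site started 51 bases before the start site in Dynlrb2 and 152 bases before it in Ccdc153, and Mlf1 held a forkhead motif and a half-site side by side, at positions -116 and -105. Promoters of 300 bases (250 before to 50 after the start) were found for 120 of the 149 genes of the gate, dynein arm, radial spoke, axonemal microtubule and assembly factor lists, and 49 of the 120 (40.8%) held GTTGCC on either strand. Of all 27025 promoters, 12.6% held it. The forkhead motif was in 24 of the 120 (20%) and in 13.4% of all promoters. Intraflagellar transport genes held the half-site in 10 of 23 promoters (43.5%) and the forkhead motif in 2 (8.70%), below the share of all promoters. The forkhead motif was also below that share in radial spoke genes, with 3 of 31 (9.68%), which are among the 120, and in BBSome and transition zone genes (1 of 26) and multiciliated cell regulators (1 of 22). A match of letters is a description and is not a bound site.

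Before the results, 3 properties of the libraries bear on the counts. Barcodes recurred between libraries of the same sample and sort at a rate of 6.16 per 100000 pairs of cells, against 0.751 between libraries of different samples or sorts, and the 110 ependymal columns held 101 distinct barcodes (70 early, 22 medium, 9 late). Library T28B gave 13 of the 22 medium cells. As a further point, 16 ependymal cells (10 early, 5 medium, 1 late) carried 10 or more UMIs of oligodendrocyte markers, up to 370 in 1 cell, and 10 of them carried 100 or more. For stage ratios that rest on these cells, the value without them is given as well. Scrublet, a doublet caller, marked 139 of 17786 cells (0.782%) and none of the 110 ependymal cells.

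The 5 selecting genes are given first. Tmem212, which encodes a membrane protein of ciliated cells, was read in 86.4% of the 110 cells, and its summed level per stage was 1848 CPM (counts per 1000000 UMIs) for early, 1636 for medium and 1964 for late cells. Ccdc153, a coiled-coil gene of motile cilia, was read in 80.9% of the cells, at 1284, 621 and 1174 CPM. Dynlrb2, a dynein light chain of the roadblock family, stood at 1040, 1063 and 1129 CPM. The medium cells thus had the lowest Ccdc153 level, while Dynlrb2 was nearly level across the stages.

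Rsph1, a radial spoke head protein, was read in 70.0% of the cells, at 675 CPM early, 752 medium and 768 late. Foxj1, the master regulator of motile ciliogenesis, was read in 61.8%, at 452, 478 and 587 CPM. In the same 110 cells all 5 genes were read together in 37, 4 of them in 36, 3 in 21, 2 in 9 and a single one in 7. These levels chose the cells and are a description only. Tmem212 lies at chr3:27866066-27896368, Ccdc153 at chr9:44240676-44247306, Rsph1 at chr17:31255019-31277383, Dynlrb2 at chr8:116504974-116515915 and Foxj1 at chr11:116330704-116335399 (GRCm38).

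The summed UMIs of the 5 genes ran from 4 to 63 per cell, with a median of 15. Just inside the threshold, 9 cells had exactly 4 UMIs and a median of 28 UMIs of 142 other cilium genes. Just outside it, 11 cells had 3 UMIs and a median of 19 such UMIs, and 32 cells had 2 UMIs and a median of 6. A further 80 CD45- cells had the 4 UMIs but more choroid plexus UMIs than the rule allows, and 3 had human EGFR.

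The label was checked against cilium genes that the rule did not use. They made up a median of 2.74% of an ependymal cell's UMIs (range 0.0302% to 4.26%), with 42 of the 142 genes read in the median cell. The median was 2.74% in early, 2.64% in medium and 3.02% in late cells. For comparison, the median was 0.116% in 291 CD45- cells gated as astrocytes, 0.431% in 231 cells gated as choroid plexus epithelium and 0.127% in the 6044 remaining CD45- cells. The remaining cells include those that failed only the choroid plexus or human EGFR limit, and they reached 4.58%. Tmem212 was read in 20 of them, with 108 of its 131 UMIs in early cells, and in 0 cells of the choroid plexus gate. Whether the rule left out ependymal cells among them was not tested. At least 20 cilium genes were read in 96 of the 110 cells.

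Not every member looked alike. In 9 cells (4 early, 4 medium, 1 late) the other cilium genes made up under 1% of UMIs, and 5 of these 9 carried 10 or more oligodendrocyte UMIs. The 5 medium cells with oligodendrocyte RNA had a median of only 4 selecting UMIs and 5 other cilium UMIs, while the 94 cells without it had medians of 15 and 79.5. 1 early cell carried 503 haemoglobin UMIs. Summed marker levels in the 110 cells were 7418 CPM for ependymal genes outside the rule, 6551 CPM for oligodendrocyte genes, 1467 CPM for haemoglobin genes, 953 CPM for choroid plexus genes, 812 CPM for astrocyte genes, 116 CPM for microglial genes and 0 for pericyte genes. The neuroblast list reached 593 CPM, nearly all of it Cd24a, which is also a surface protein of ependymal cells.

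**Figure D1:**
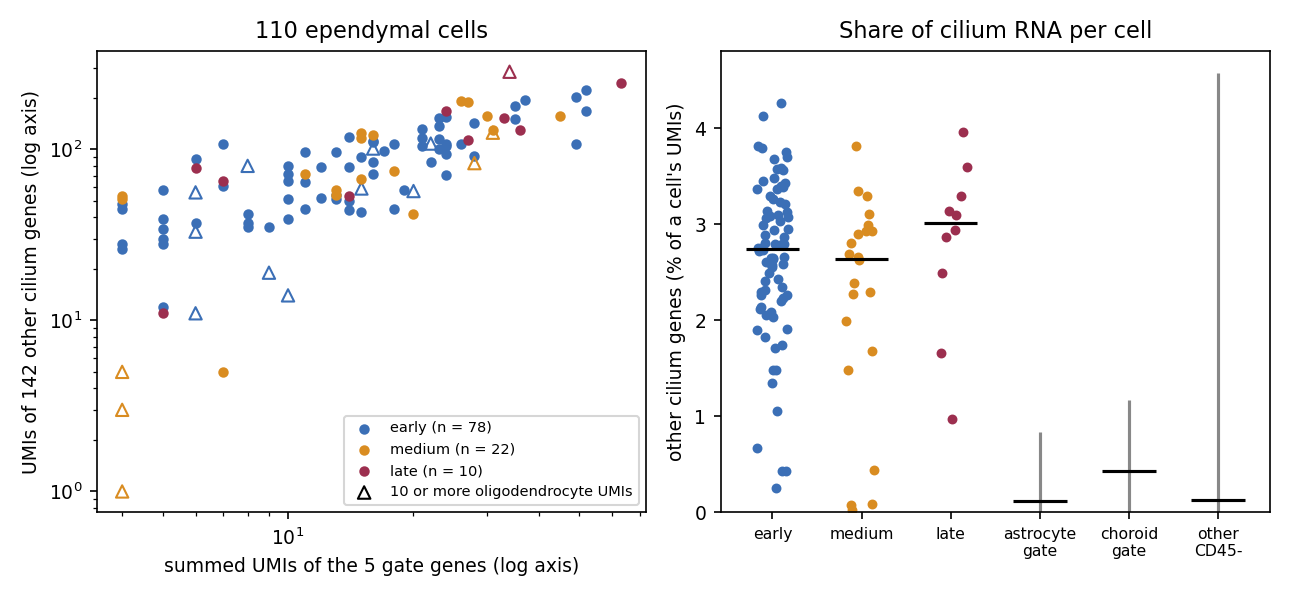
Left, summed UMIs of the 5 selecting genes against UMIs of 142 other cilium genes for each of the 110 ependymal cells (both axes logarithmic), colored by stage, with open triangles for the 16 cells with 10 or more oligodendrocyte UMIs. Right, share of a cell's UMIs from the other cilium genes, with a point for each ependymal cell and a black line at the median; grey lines span the lowest to the highest comparison cell. The medians of 2.74%, 2.64% and 3.02% in the 3 stages lie above the medians of the 3 comparison groups, and a few medium and early cells fall near 0.

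The median early cell gave 3091.5 UMIs, the median medium cell 4097.5 and the median late cell 4058, from 241362, 83742 and 44288 UMIs in all. All CD45- cells gave lower medians of 2289, 3082 and 3088 UMIs, and the astrocyte gate 2120, 2687 and 2504. Mitochondrial genes made up a median of 9.93%, 7.81% and 5.10% of UMIs in early, medium and late ependymal cells, and the same order held over all CD45- cells (7.33%, 5.64% and 3.13%).

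The share of ependymal cells among CD45- cells fell from stage to stage. It was 2.83% in the early sample (78 of 2760 cells, exact Clopper-Pearson 95% interval 2.24% to 3.51%), 1.36% in the medium sample (22 of 1617, 0.855% to 2.05%) and 0.435% in the late sample (10 of 2299, 0.209% to 0.798%). The intervals cover counting error only and do not overlap, and with 1 tumor sample per stage the spread between tumors is unknown. Without the cells with oligodendrocyte RNA the shares were 2.46% early, 1.05% medium (0.614% to 1.68%) and 0.391% late (0.179% to 0.742%). The medium and late intervals then overlapped. They also overlapped after thinning each cell to 1000 UMIs and with library T28B left out. The same held for at least 3 or at least 6 selecting UMIs, for every deposited cell, and with each shared barcode counted once. It held too with no choroid plexus UMI allowed and at up to 10% mitochondrial UMIs. In both of these settings the early and medium intervals overlapped as well. They were 1.41% to 2.46% and 0.567% to 1.60% with no choroid plexus UMI, and 1.34% to 2.55% and 0.489% to 1.56% at up to 10%. Over the libraries the share ran from 2.36% to 3.30% for the early tumor, from 0.297% to 2.63% for the medium tumor and from 0.173% to 0.805% for the late tumor. Every early library but T04D (2.36%) and T04B (2.51%) lay above the highest medium library, and T28A of the medium sample lay below 3 of the 4 late libraries.

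Sequencing run did not change the early sample's place. In run 1 the shares were 3.30%, 0.297% and 0.408% for early, medium and late, in run 2 they were 2.51%, 1.84% and 0.173%, and in run 3 they were 2.80%, 1.22% and 0.805%. The medium share was thus below the late share in run 1, where the medium sample held 1 ependymal cell. Without T28B the medium share was 0.801%. The early share was the highest with each library left out.

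The denominator changed with stage as well. CD45- cells with no human EGFR UMI made up 99.7%, 79.3% and 57.1% of the early, medium and late CD45- cells. Among those cells the ependymal share was 2.83% early, 1.72% medium (interval 1.08% to 2.59%) and 0.762% late (0.366% to 1.40%), so that the medium and late intervals overlapped. After thinning each cell to 1000 UMIs the 3 shares were 2.16%, 0.826% and 0.453%. With each shared barcode counted once they were 2.73%, 1.39% and 0.464%. A loss of ependymal cells, a larger number of other CD45- cells and a different recovery from the tissue cannot be told apart in these shares.

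Choroid plexus cells, which come from the same ventricles, followed the ependymal cells only in part. Their gate held 6.56% of early, 1.36% of medium and 1.22% of late CD45- cells. There were 43.1 ependymal cells for every 100 choroid plexus cells in the early sample (exact 95% interval 32.6 to 56.5), 100 in the medium sample (52.8 to 189) and 35.7 in the late sample (15.5 to 75.7). The medium interval overlaps those of the early and the late sample. Without T28B the medium ratio was 60 (9 against 15 cells, 23.2 to 146). With no limit on ependymal UMIs in the choroid plexus gate the ratios were 27.96, 45.8 and 19.6 for early, medium and late.

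**Figure D2:**
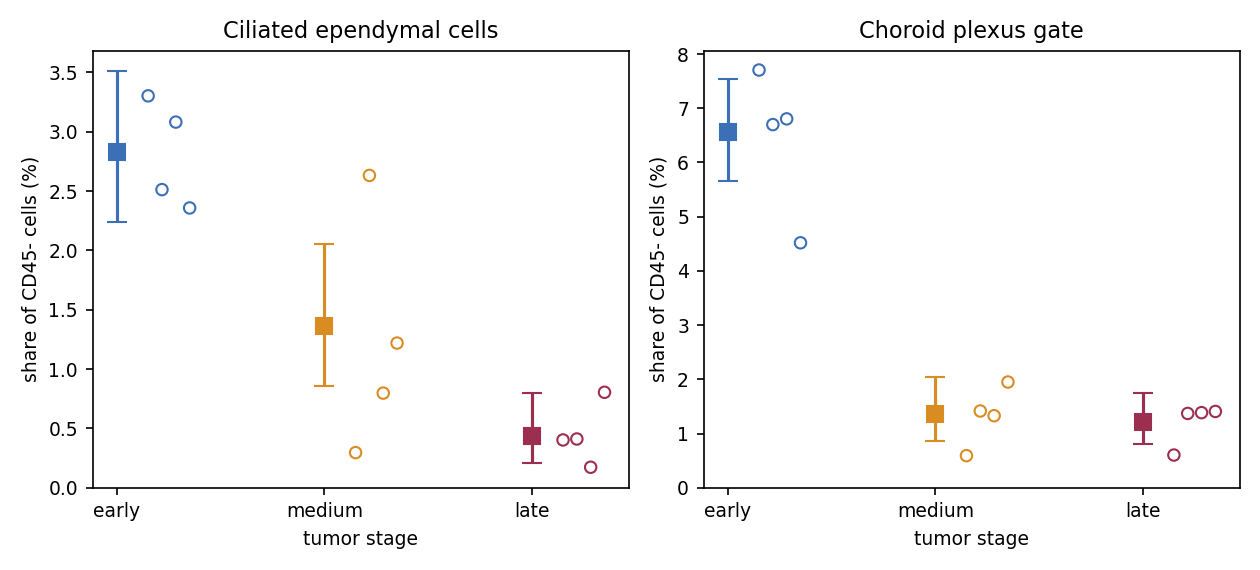
Share of CD45- cells (in percent, axis from 0) that met the ependymal rule (left) and the choroid plexus gate (right) at each tumor stage. Squares with bars are the pooled share with its exact 95% interval, and open circles are single libraries, 4 for each stage. The ependymal share was 2.83%, 1.36% and 0.435%, while the choroid plexus share was 6.56%, 1.36% and 1.22%.

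To find what sets ependymal cells apart from their nearest kin, UMIs were summed per tumor sample and cell class and compared with edgeR, pairing the 3 samples. Against the 291 cells of the astrocyte gate, 5849 genes could be tested, of which 536 (9.16%) were higher and 549 (9.39%) lower in ependymal cells at an adjusted p below 0.05 (18.6% in either direction), and the median log2 fold change was -0.19. Against the 231 cells of the choroid plexus gate, 450 of 2681 genes (16.8%) were higher and 324 (12.1%) lower (28.9% in either direction), with a median of 0.02. All values of log2 fold change in the following are ependymal over the named gate. The selecting genes of both classes were left out, and since the other cilium genes belong to the same program as the selecting genes, their calls are a description.

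The astrocyte gate was mixed. Of its 291 cells, 151 carried 10 or more UMIs of another class's markers, among them 38 with neuron and 66 with oligodendrocyte markers, against 28 of 231 in the choroid plexus gate. Leaving those cells out gave 364 higher and 318 lower genes of 1939 tested, with a median of 0.09. In the early, medium and late samples the remaining cells held 124313, 109111 and 52570 UMIs of the gate's 477583, 269211 and 323138. The cells with RNA of other classes thus held most of the UMIs summed for the astrocyte gate in each sample. Where the value of a named gene lost its call or turned in the remaining 140 cells, or where a described list's median changed sign, this is given with it. Without the early sample, 231 genes were higher and 201 lower than in the astrocyte gate, and 142 were higher and 98 lower than in the choroid plexus gate.

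Genes of the axonemal dynein arms, the motors of the ciliary beat, were higher than in the astrocyte gate for 15 of 18 tested and lower for none, with a median log2 fold change of 6.68. Against the choroid plexus gate all 14 tested were higher, with a median of 3.35. Genes with few UMIs were not tested, and a gene can pass that filter through the class where it is high. With every gene with a count tested, 20 of 27 were higher than in the astrocyte gate and 15 of 27 than in the choroid plexus gate. Without the early sample 3 of 13 passed against that gate, with a median of 3.43. Dnah5, an outer arm heavy chain, was read at 112, 143 and 135 CPM in early, medium and late ependymal cells and at 0 in every sample of both gates. It was at least 43.4-fold higher than in the astrocyte gate and at least 45.8-fold higher than in the choroid plexus gate, taking 3 UMIs over each gate as the floor. Dnali1, an inner arm light intermediate chain, gave 514, 430 and 474 CPM in ependymal cells, 4.19, 0 and 0 in the astrocyte gate and 34.0, 17.3 and 63.3 in the choroid plexus gate. Its log2 fold changes were 7.65 (SE 0.64, edgeR adjusted p = 7.35e-06) and 3.59 (SE 0.42, adjusted p = 0.000118).

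Dnah6 and Dnah9, further heavy chains, had positive log2 fold changes against both gates, and the genes were not tested against each other. Dnah6 stood at 220, 167 and 226 CPM, with log2 fold changes of 7.13 against the astrocyte gate and 4.20 against the choroid plexus gate. Dnah9 stood at 199, 155 and 226 CPM, with values of 7.04 and 3.11. Wdr63, a dynein intermediate chain, was at 0 in the astrocyte gate and gave 120, 179 and 226 CPM in ependymal cells.

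Radial spoke, central pair and nexin link genes were higher for 24 of 26 tested against the astrocyte gate (median 6.03) and for 14 of 15 against the choroid plexus gate (median 3.08), and lower for none. With every gene with a count tested, 31 of 36 were higher than in the astrocyte gate and 16 of 36 than in the choroid plexus gate. Hydin, a central pair protein, gave 203, 47.8 and 316 CPM in the 3 stages and 0 in the astrocyte gate. Ccdc40, part of the ruler that sets the spacing of the arms, gave 137, 191 and 181 CPM and 0 in every sample of the choroid plexus gate, where it was at least 58.0-fold higher. Its log2 fold change against the astrocyte gate was 5.66 (SE 0.86, adjusted p = 0.000439). Some spoke genes were shared with the choroid plexus: Nme5 gave 332, 287 and 384 CPM against 99.6, 164 and 57.0 CPM there, a log2 fold change of 1.59 (adjusted p = 0.0123) that was no longer called with DESeq2 or without the early or the late sample.

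Axonemal microtubule and other cilium proteins were the largest group. Of 49 tested against the astrocyte gate, 46 were higher and 1 lower (median 6.82), and of 43 against the choroid plexus gate, 37 were higher and 1 lower (median 3.25). With every gene with a count tested, 53 of 62 were higher than in the astrocyte gate and 37 of 62 than in the choroid plexus gate. The choroid plexus gate leaves out cells with more than 1 selecting UMI. With no such limit 18 of 21 dynein arm genes (median 2.72), 23 of 30 radial spoke genes (2.12) and 43 of 53 axonemal genes (2.87) were higher. Without the early sample 5 of 13 radial spoke and 20 of 40 axonemal genes were higher than in the choroid plexus gate. Fam183b, whose promoter is printed above with its half-site, gave 986, 633 and 1377 CPM, with 2.09, 7.43 and 3.09 CPM in the astrocyte gate and 2.34, 17.3 and 12.7 CPM in the choroid plexus gate. No ependymal sample overlapped a sample of either gate. Its log2 fold changes were 7.73 (SE 0.55, adjusted p = 5.73e-06) and 7.10 (SE 0.52, adjusted p = 1.12e-05).

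The log2 fold change over the choroid plexus gate differed in size between cilium genes. Ak7, an adenylate kinase of cilia, gave 684, 681 and 722 CPM in ependymal cells and 9.37, 8.66 and 12.7 CPM in the choroid plexus gate (log2 fold change 5.95). Tppp3, a tubulin-binding protein, gave 924, 1146 and 1106 CPM against 31.6, 0 and 38.0 CPM (5.15). Mlf1, the other cilium gene whose promoter is shown, gave 688, 490 and 1039 CPM against 104, 113 and 82.3 CPM (2.72), and Cfap126 gave 659, 776 and 745 CPM against 132, 60.6 and 108 CPM (2.69). Against the astrocyte gate the same genes had log2 fold changes of 6.06 for Ak7, 3.52 for Tppp3, 6.72 for Mlf1 and 8.20 for Cfap126.

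Tubulin, the substance of the axoneme, moved by isotype. Tubb4b, a beta-tubulin of ciliary axonemes, gave 2113, 1696 and 1806 CPM in ependymal cells, 247, 282 and 124 CPM in the astrocyte gate and 686, 623 and 468 CPM in the choroid plexus gate, with log2 fold changes of 3.08 and 1.56. Tubb2b, a beta-tubulin of young neurons and glia, gave 20.7, 11.9 and 0 CPM against 312, 505 and 195 CPM in the astrocyte gate (-4.49, adjusted p = 0.000152). Tuba1a gave 5179, 4215 and 4177 CPM, with log2 fold changes of 1.82 and 3.25, but it shares sequence with close paralogs and reads may be split among them. Tubb4b and Tuba1a were counted above with the axonemal microtubule proteins. The separate list of tubulins and tubulin-modifying enzymes, which holds Tubb2b, had 1 gene higher and 7 lower of 15 tested against the astrocyte gate (median -1.12) and 0 higher and 1 lower of 4 against the choroid plexus gate (median -0.34).

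Genes that build cilia had smaller fold changes in the median than the axoneme lists against the astrocyte gate. Assembly factors of the dynein arms were higher for 7 of 7 tested against the astrocyte gate (median 3.92) and for 2 of 4 against the choroid plexus gate (median 2.90), among them Zmynd10 (log2 fold changes 6.73 and 4.77) and the chaperone ATPase Ruvbl2 (3.92 and 3.89). With every gene with a count tested, 12 of 16 assembly factors were higher than in the astrocyte gate and 5 of 16 than in the choroid plexus gate. Intraflagellar transport genes were higher for 12 of 18 (median 2.35) and 6 of 12 (median 1.62), and lower for none. Ttc30b, a subunit of the transport train, gave 427, 478 and 655 CPM against 31.4, 48.3 and 6.19 CPM in the astrocyte gate (4.12, adjusted p = 0.000122) and 85.5, 95.2 and 57.0 CPM in the choroid plexus gate (2.54, adjusted p = 0.000431). Ift20, which carries cargo from the Golgi to the cilium, was higher than in the astrocyte gate (1.63) and did not pass against the choroid plexus gate (0.67, adjusted p = 0.183). Against the choroid plexus gate the place of the assembly factors was not fixed: their median was 3.51, 3.86 and 3.44 without the early, medium or late sample and 3.96 without the ependymal cells with oligodendrocyte RNA, each above the medians of the 3 axoneme lists under the same setting. The difference in size between these lists was not tested.

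BBSome and transition zone genes, which gate the entry of proteins into all cilia, were higher for 6 of 17 against the astrocyte gate (median 1.29) and for 1 of 9, with 1 lower, against the choroid plexus gate (median 0.65). The choroid plexus counts are near the shares of all genes tested, of which 16.8% were higher and 12.1% lower there. Tmem67, a transition zone membrane protein, was the 1 gene higher than in the choroid plexus gate, at 141, 143 and 113 CPM against 15.2, 34.6 and 0 CPM (3.03, adjusted p = 0.0106), a call lost with DESeq2 and without the early sample. Of the regulators of multiciliated cells, 4 of 9 were higher against the astrocyte gate (median 1.49, and 0.41 with 1 of 4 higher when its cells of mixed RNA were left out) and 1 of 4 against the choroid plexus gate (median 0.26), and none were lower. The choroid plexus value was not stable. Its median was 4.18 (3 of 5 higher) without the ependymal cells with oligodendrocyte RNA. It was 0.13 (1 of 3), 2.67 (4 of 7) and 2.65 (3 of 7) without the early, medium or late sample. Rfx2, a factor that binds the X-box, gave 157, 119 and 271 CPM, with log2 fold changes of 4.79 (adjusted p = 0.000266) and 4.07 (adjusted p = 0.00126). Myb, which acts early in the multiciliated program, gave 162, 59.7 and 361 CPM against 2.09, 7.43 and 12.4 CPM in the astrocyte gate (4.58).

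**Figure D3:**
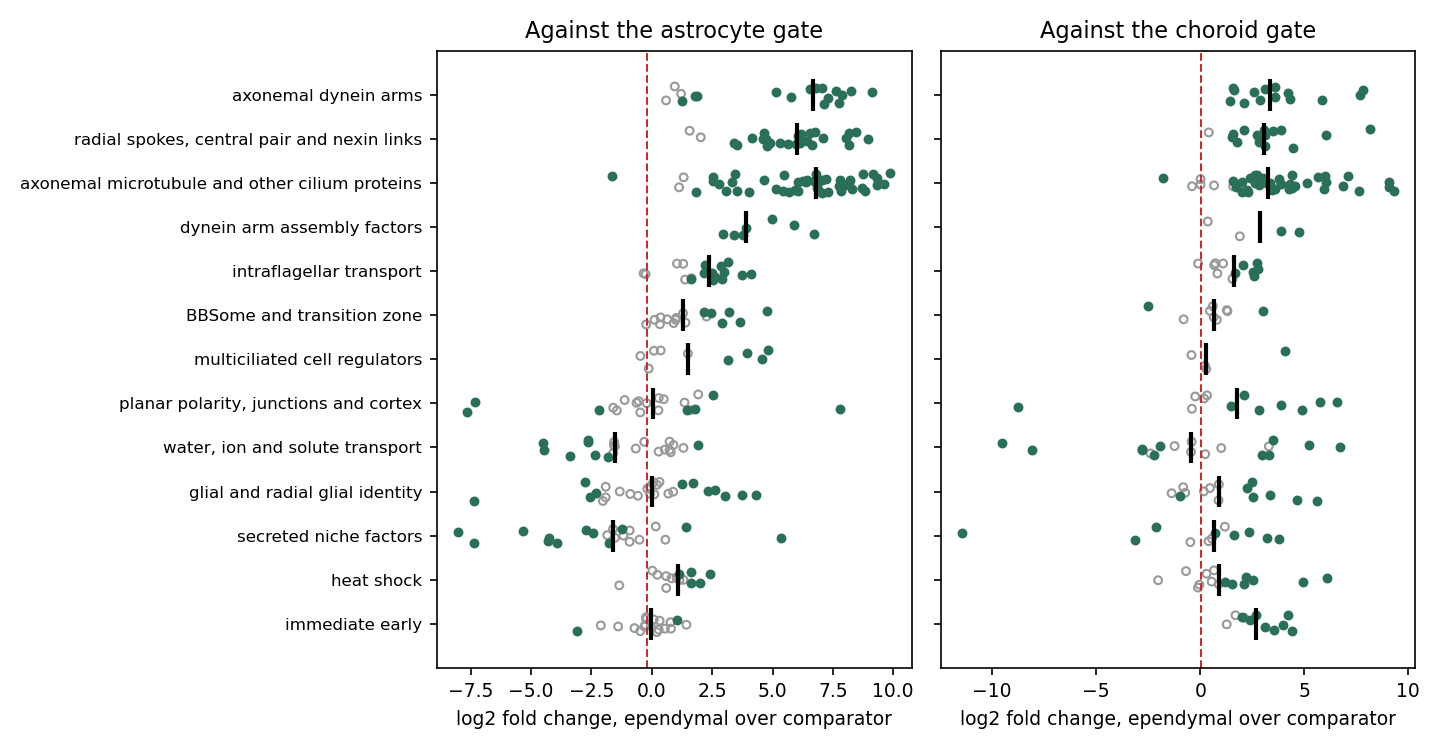
Log2 fold change of ependymal cells over the astrocyte gate (left) and over the choroid plexus gate (right), with a point for each tested gene of 13 lists. Filled points passed an edgeR adjusted p below 0.05, black bars are list medians, and the red dashed line is the median of all genes tested (-0.19 and 0.02). The cilium lists lie to the right in both panels, by a median of 6.82 and 3.25 for axonemal microtubule proteins, while transport, glial identity and secreted factor genes spread to both sides.

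The 10 genes farthest above the astrocyte gate were 1700012B09Rik, Lrrc23, 1700024G13Rik, Stoml3, Pifo, 1700001C02Rik, Cdhr4, Cfap161, Tctex1d4 and Dmkn, each at 0 UMIs in all 3 samples of the astrocyte gate. Lrrc23 is a radial spoke protein, Pifo acts at the base of cilia and Tctex1d4 is a dynein light chain, whereas Dmkn encodes a secreted protein first known from skin. By the floor of 3 UMIs they were between 100-fold (Dmkn) and 182-fold (1700012B09Rik) higher at least, and all 10 kept their call under every alternative in which they could be tested. The 10 genes farthest below the astrocyte gate were Ccn3, Mef2c, Slc4a10, Scn2a, Cck, Gad1, Chst1, Stmn3, Pgm2l1 and Atp6v1g2, all at 0 UMIs in ependymal cells. Several of these, such as Scn2a, Cck, Gad1 and Stmn3, are neuronal, and only Ccn3 and Chst1 could still be tested once astrocyte gate cells with RNA of other classes were left out.

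Against the choroid plexus gate the largest were Mro, Stoml3, Dmkn, Sntn, Fam216b, Ramp1, Hc, 3300002A11Rik, Cdhr3 and Ankrd66. Sntn is a protein of ciliary tips, Ramp1 a subunit of receptors for calcitonin gene-related peptide and Hc complement component C5. Ramp1 gave 621, 346 and 474 CPM in ependymal cells and 1.17, 0 and 0 CPM in the choroid plexus gate (log2 fold change 8.63, SE 0.62, adjusted p = 7.81e-06). Hc gave 228, 131 and 90.3 CPM and was at 0 in the gate. In the other direction Igf2, Vat1l, 2900040C04Rik, Slc4a10, Trpm3, Kcne2, Prr32, Slc4a5, Lgals1 and Vcam1 were at 0 UMIs in ependymal cells, with Igf2, a growth factor secreted into the fluid, at least 158-fold lower and Vcam1 at least 25.7-fold lower.

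At the apical surface and the cell contacts, the calls went both ways. Of the planar polarity, junction and cortex genes, 4 were higher and 3 lower of 20 tested against the astrocyte gate (median 0.03), and 7 were higher and 1 lower of 12 against the choroid plexus gate (median 1.78). Cd24a, a glycoprotein of the ependymal surface, gave 617, 514 and 406 CPM, with 4.19, 0 and 0 CPM in the astrocyte gate and 5.86, 0 and 6.33 CPM in the choroid plexus gate (log2 fold changes 7.80 and 6.56). Ezr, which ties the membrane to the cortical actin, was higher than in the astrocyte gate, at 568, 633 and 655 CPM against 105, 119 and 80.5 CPM (2.52, adjusted p = 0.000216). Celsr1 and Fzd3, which orient the cilia across the tissue, were higher than in the choroid plexus gate (5.76 and 3.90), and their values against the astrocyte gate did not pass (1.92, adjusted p = 0.0808, and 1.36, adjusted p = 0.0617).

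Gja1, the gap junction protein connexin 43, gave 588, 370 and 858 CPM in ependymal cells, 1229, 1653 and 808 CPM in the astrocyte gate and 9.37, 51.9 and 12.7 CPM in the choroid plexus gate. The late ependymal cells stood above the late astrocyte gate, and the other ependymal samples lay below theirs. Against the choroid plexus gate the log2 fold change was 4.91 (SE 0.60, adjusted p = 0.000261). Against the astrocyte gate it was -1.13 and did not pass (adjusted p = 0.072), but it was -2.63 (adjusted p = 1.4e-12) with the cells of mixed RNA left out.

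Of the channels and carriers, 1 was higher and 7 were lower of 21 tested against the astrocyte gate (median -1.53), and calls went both ways against the choroid plexus gate, with 5 of 18 higher and 6 lower (median -0.43). Aqp4, the water channel of astrocytes and ependyma, gave 551, 561 and 474 CPM in ependymal cells, 304, 654 and 118 CPM in the astrocyte gate and 1.17, 26.0 and 0 CPM in the choroid plexus gate. Its log2 fold change against the choroid plexus gate was 6.72 (adjusted p = 0.000107). Against the astrocyte gate the value was 0.74 (adjusted p = 0.252), and it turned to -0.97 (adjusted p = 0.0335) with the cells of mixed RNA left out. The potassium channel Kcnj10 behaved alike, at 5.25 against the choroid plexus gate, 0.73 against the astrocyte gate (adjusted p = 0.232) and -0.34 with those cells left out.

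Slc2a1, the glucose transporter GLUT1, was higher than in both gates, at 493, 728 and 813 CPM against 207, 238 and 77.4 CPM in the astrocyte gate (1.92, adjusted p = 0.00435) and 60.9, 60.6 and 57.0 CPM in the choroid plexus gate (3.29, adjusted p = 4.67e-05). The glutamate carrier Slc1a3, a transporter of astrocytes, was lower than in their gate. It gave 228, 179 and 384 CPM against 1487, 2908 and 733 CPM (-2.66, adjusted p = 0.00171).

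The glial identity list had calls both ways, with 7 of 26 higher and 4 lower against the astrocyte gate (median 0.00), but 4 of 20 higher and 9 lower (median -0.86) with the cells of mixed RNA left out, and 6 of 14 higher and 1 lower against the choroid plexus gate (median 0.89). Dbi, which encodes the acyl-CoA-binding protein, gave 3856 UMIs in the ependymal cells and was read in 98.2% of them. It gave 10687, 7714 and 14225 CPM, against 628, 813 and 223 CPM in the astrocyte gate and 1176, 1117 and 633 CPM in the choroid plexus gate, and its log2 fold changes were 4.32 (adjusted p = 2.07e-05) and 3.36 (adjusted p = 8.76e-05). Vim, the intermediate filament vimentin, gave 1637, 1242 and 1513 CPM (3.74 and 4.64). S100b, a calcium-binding protein of glia, gave 667, 907 and 926 CPM (2.31 and 5.59). Glul, the glutamine synthetase of astrocytes, gave 261, 466 and 67.7 CPM against 1926, 2036 and 805 CPM in their gate (-2.78, adjusted p = 0.000243).

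Sox9 and Sox2, factors of neural stem cells and glia, were higher than in the choroid plexus gate (2.50 and 2.54). Against the astrocyte gate Sox9 passed (1.72, adjusted p = 0.022) and Sox2 did not (0.68, adjusted p = 0.246), and with the cells of mixed RNA left out the values were -0.042 and -0.98, so no direction can be given for either.

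Secreted factors were lower than in the astrocyte gate for 10 of 21 and higher for 2 (median -1.61), and higher than in the choroid plexus gate for 5 of 12 and lower for 3 (median 0.65). Mia, which encodes a small secreted protein first described in melanoma, gave 439, 322 and 181 CPM, with log2 fold changes of 5.37 (adjusted p = 5.42e-05) and 3.79 (adjusted p = 0.000317). Ptn, the growth factor pleiotrophin, gave 418, 131 and 22.6 CPM against 911, 1779 and 634 CPM in the astrocyte gate (-2.72, adjusted p = 0.00404). Igfbp2, an IGF-binding protein, gave 141, 47.8 and 90.3 CPM against 695, 918 and 893 CPM in the choroid plexus gate (-3.13, adjusted p = 0.000139). Clu, the chaperone clusterin, gave 2353, 1517 and 2935 CPM, and its value of 1.43 against the astrocyte gate (adjusted p = 0.0256) turned to -0.21 with the cells of mixed RNA left out. Otx2, a transcription factor of the choroid plexus, was between the 2 gates, at 211, 287 and 135 CPM (2.61 against the astrocyte gate, adjusted p = 0.00523, and -0.96 against the choroid plexus gate, adjusted p = 0.0355, a call lost in 5 alternatives).

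Several stress genes were higher in ependymal cells. Heat shock genes passed for 5 of 14 against the astrocyte gate (median 1.07) and for 7 of 15 against the choroid plexus gate (median 0.89), and none were lower. Hsp90aa1, a cytosolic chaperone, gave 4093, 2436 and 4651 CPM, with log2 fold changes of 2.42 (adjusted p = 8.26e-05) and 2.21 (adjusted p = 3.45e-05). Hspa1b, an inducible HSP70, gave 845, 1051 and 271 CPM against 16.4, 0 and 0 CPM in the choroid plexus gate (6.12, adjusted p = 2.16e-05). Immediate early genes, which enzymatic dissociation is known to induce, were higher for 8 of 11 against the choroid plexus gate (median 2.66), among them Jun (4.24), and for 1 of 19, with 1 lower, against the astrocyte gate (median -0.043, and 0.077 with 3 of 14 higher and 1 lower when the cells of mixed RNA were left out). The part of dissociation in these values was not tested.

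Of the antioxidant, metallothionein and iron genes, 5 were higher and 2 lower of 23 tested against the astrocyte gate (median 0.63, and -0.036 over 18 genes with the cells of mixed RNA left out), and 7 were higher and 3 lower of 20 against the choroid plexus gate (median 0.00). Mt1, a metallothionein, gave 4781, 2341 and 7609 CPM against 356, 208 and 120 CPM in the choroid plexus gate (4.22, adjusted p = 0.000652), and its value against the astrocyte gate (1.81, adjusted p = 0.0138) was not called with the cells of mixed RNA left out (0.36). Glycolysis and hypoxia genes were lower for 8 of 23 and 10 of 16, and higher for 2 and 1 (medians -0.92 and -1.63), with Aldoc, an astrocyte aldolase, at -3.63 and Ldhb at -2.23. Of the cell cycle genes, 1 was higher and 2 were lower of 9 tested against the astrocyte gate (median -0.60, and 0.11 over 3 genes with the cells of mixed RNA left out), and 1 was higher and 2 were lower of 6 against the choroid plexus gate (median -0.86). The higher one was Cdkn1a, an inhibitor of the cell cycle, in both comparisons (1.42, edgeR adjusted p = 0.0264, and 3.72, adjusted p = 0.00119), with both calls lost without the early sample and the first also with DESeq2 and with every gene with a count. These counts of 1 higher gene are near the shares of all genes tested, 9.16% against the astrocyte gate and 16.8% against the choroid plexus gate. Cdkn1c, another inhibitor, gave 16.6, 35.8 and 45.2 CPM against 614, 744 and 563 CPM in the choroid plexus gate (-4.68, adjusted p = 2.17e-05).

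Between stages, ratios of CPM were taken for genes with at least 20 UMIs over both stages, each with an exact interval for counting error. From early to late, 397 of 2944 genes (13.5%) were at least 2-fold higher and 410 (13.9%) at least 2-fold lower, with a median log2 ratio of 0.12. The interval lay above 0 for 271 of the 2944 genes and below 0 for 176. From early to medium, 437 of 3372 (13%) were higher and 453 (13.4%) lower, with a median of 0.03. Here the interval lay above 0 for 395 genes and below 0 for 350. Of 52 axonemal microtubule and other cilium genes, 3 were at least 2-fold higher and 2 lower in late cells (median 0.20) and 1 was higher and 8 lower in medium cells (median -0.26, and -0.12 without the cells with oligodendrocyte RNA). Without the cells with oligodendrocyte RNA the late median was -0.09. Without library T24B it was -0.05, with 2 of 51 genes higher and 7 lower. Without T24D it was 0.33, with 7 of 52 higher and 3 lower. Dynein arm genes had medians of 0.24 in late cells (-0.23 without the cells with oligodendrocyte RNA) and -0.28 in medium cells (-0.0048 without those cells). Of the cilium lists, those farthest above the median of all genes in late cells were the multiciliated cell regulators, with a median of 0.82 (0.25 without those cells) and 3 of 7 genes at least 2-fold higher, and the dynein arm assembly factors, with a median of 0.68 and 3 of 9 higher. In each of these lists 2 intervals lay above 0. Neither list had a gene at least 2-fold lower in late cells. In medium cells their medians were -0.18 and -0.36, and intraflagellar transport genes had -0.55 (-0.16 without those cells), with 5 of 17 at least 2-fold lower and 3 intervals below 0.

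MHC class I and interferon genes, of antigen presentation and the antiviral response, were higher in medium cells. Of the 36 genes listed, 10 had at least 20 UMIs over both stages. Of these, 8 were at least 2-fold higher than in early cells and none lower, with a median log2 ratio of 1.65. Of all 3372 genes with that minimum, 13% were at least 2-fold higher. Of the 10 intervals, 8 lay above 0, against 395 of those 3372. Genes near the minimum can pass it mainly through the stage where they are high. At a minimum of 10 UMIs, 12 of 17 genes were higher and 2 lower, with a median of 1.65. H2-D1, a classical class I heavy chain, gave 111 UMIs in 10 of 22 medium cells against 50 UMIs in 24 of 78 early cells, or 1326 against 207 CPM (log2 ratio 2.67, interval 2.18 to 3.19, and 2.18 without the cells with oligodendrocyte RNA). H2-K1, the other heavy chain, gave 633 against 215 CPM (1.55, 0.97 to 2.13). B2m, the light chain, gave 442 against 66.3 CPM (2.71), but 0.96 without the cells with oligodendrocyte RNA. Ifitm3, which restricts the entry of viruses, gave 406 against 157 CPM (1.37). Reads of the closely related H2 genes may be split among them.

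The level was uneven within the medium sample. The summed level of the list was 1060 to 1455 CPM in the 4 early libraries, 6237 CPM in T28B (13 cells), 4692 CPM in T28C (3 cells), 1691 CPM in T28D (5 cells) and 0 in T28A (1 cell), and 1101 to 1951 CPM in the late libraries. Over the medium libraries oligodendrocyte marker RNA was also high where the list was, at 16671 CPM in T28B, 17429 in T28C, 666 in T28D and 0 in T28A. The early libraries did not follow this order, with 12739 CPM of oligodendrocyte RNA in T04B and 6073 in T04A beside 1162 and 1060 CPM of the list. Without the cells with oligodendrocyte RNA 6 genes of the list had 20 UMIs, with a median log2 ratio of 1.57, and 5 of them were at least 2-fold higher. Without T28B only 5 genes had 20 UMIs, with a median of 0.84, and 2 of them were at least 2-fold higher. Iigp1, an interferon-induced GTPase, gave 20 UMIs in medium and 0 in early cells (at least 19.2-fold higher), but 17 of the 20 came from 1 cell, which carried oligodendrocyte RNA. Over all other CD45- cells the same 10 genes had a median log2 ratio of 2.01 from early to medium. In late cells the list had a median of -0.03 over 5 genes, and H2-K1 was lower (45.2 against 215 CPM, -1.95). That median depended on the setting. At a minimum of 10 UMIs it was 0.65 over 12 genes, with 4 at least 2-fold higher and 2 lower. Without library T04B it was -0.97 over 3 genes.

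**Figure D4:**
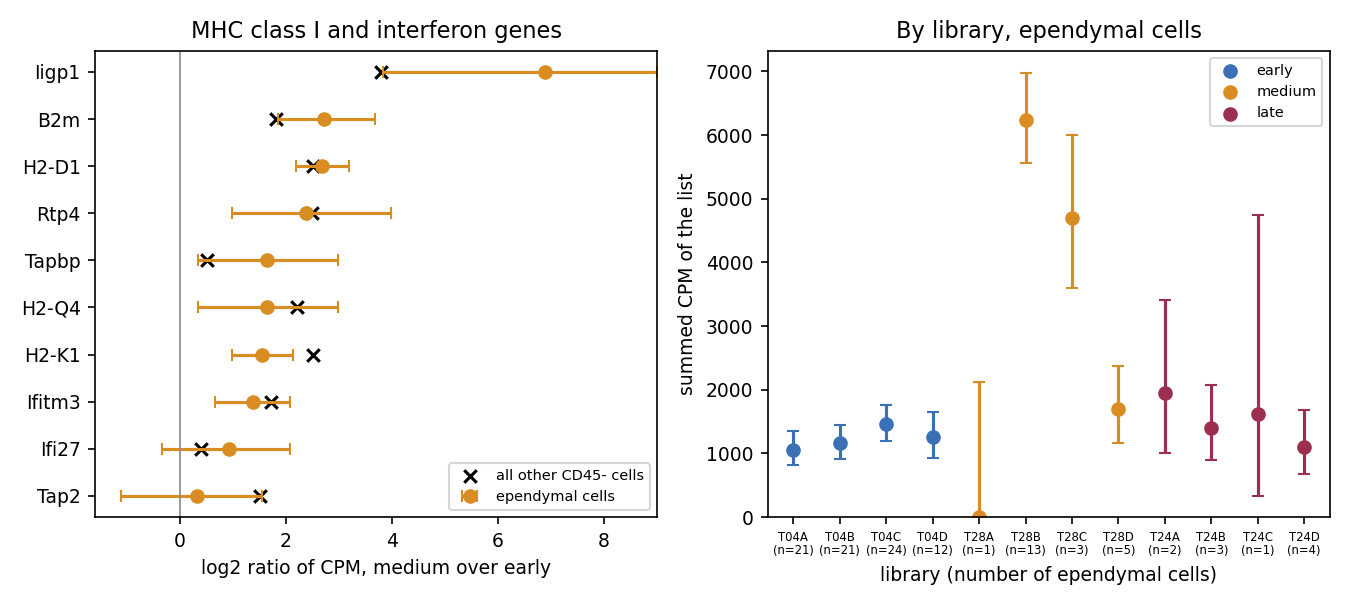
Left, log2 ratio of CPM in medium over early cells for the MHC class I and interferon genes with at least 20 UMIs; circles with exact 95% intervals are ependymal cells (the interval of Iigp1 has no upper end and is drawn to the edge), and crosses are all other CD45- cells. Right, summed CPM of the list in the ependymal cells of each library with exact 95% Poisson intervals, with the number of cells below each library (axis from 0). T28B and T28C lie at 6237 and 4692 CPM, above the early libraries at 1060 to 1455 CPM.

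Of the immediate early genes, 1 was at least 2-fold higher and 4 were lower of 16 in medium cells (median -0.55, -0.17 without the cells with oligodendrocyte RNA, and -1.29 with 8 of 15 lower without T28B). In late cells 5 of 15 were at least 2-fold higher and none lower (median 0.62). That level came from library T24D, which gave 325 UMIs of the list in 4 cells (17035 CPM), while the other late libraries stood at 1082 to 3415 CPM and the early libraries at 7733 to 10699 CPM. Without T24D the late median was -2.90, with 2 of 14 genes higher and 9 lower. Fos, an immediate early transcription factor, gave 3232 CPM in early, 1146 in medium (-1.49, and -0.98 without those cells) and 1784 in late cells (-0.85, and -5.03 without T24D). Of 14 heat shock genes, 2 were at least 2-fold lower in medium cells, Hspa4l (-1.43) and Dnajb1 (-1.38), and none higher, with a list median of -0.15. That count is near the share of all genes, of which 13.4% were at least 2-fold lower in medium cells. In late cells 1 heat shock gene was at least 2-fold higher and 4 were lower, against 13.5% and 13.9% of all genes. The late median was 0.11, and -0.0014 without the cells with oligodendrocyte RNA. Socs3, an inhibitor of cytokine signaling, gave 203 CPM in early, 35.8 in medium (-2.29) and 22.6 in late cells (-2.60). Socs3 went the other way in the other CD45- cells (1.51 in medium and 1.77 in late), which was not tested as a difference. Slc4a2, an anion exchanger, gave 251 CPM in medium and 49.7 in early cells (2.31, interval 1.24 to 3.49). Slc12a2, the NKCC1 cotransporter of fluid secretion, gave 418 against 87.0 CPM (2.25), but 0.48 without the cells with oligodendrocyte RNA.

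Of the 10 genes that ranked highest in late cells, several owed most of their UMIs to 1 cell. Kat2b, a histone acetyltransferase, gave 16 UMIs in late cells, of which 14 were in 1 cell, Atf3 gave 21 of 24 in 1 cell and Ak4 gave 11 of 12. Sspo, the large protein of the Reissner fiber made by the subcommissural organ, gave 19 UMIs in 1 late cell, 14 in 1 early cell and 14 in 2 medium cells. Rgs2 gave 8 of 13 UMIs in 1 cell, Cul3 7 of 14 and Hyou1, a chaperone of the endoplasmic reticulum, 12 of 21 (log2 ratio 2.74, and 2.13 without the cell with oligodendrocyte RNA). Less bound to 1 cell were Kmt2a (18 UMIs in 7 late cells, at most 5 in 1, log2 ratio 2.61), Id2 (16 in 4, at most 5 in 1, 2.97) and Trpm7 (13 in 4, at most 5 in 1, 3.29). Genes near the minimum of 20 UMIs over both stages can pass it mainly through the stage where they are high. Kat2b, Ak4 and Trpm7 (13 late and 7 early UMIs) had just that minimum, so their ratios depend in part on the filter. The lowest in late cells were Ptgds, Hbb-bs, Hba-a1, Cldn11, Hba-a2, Mal, Car2, Cryab, Hbb-bt and Sept4, all at 0 UMIs there. The haemoglobin genes were also lower in all other CD45- cells of the late sample, with log2 ratios from -7.47 (Hba-a1) to -10.4 (Hbb-bt). For Hbb-bs 198 of 219 early UMIs came from 1 cell, and Cldn11 and Mal are myelin genes. Without the cells with oligodendrocyte RNA the log2 ratios of the 6 genes besides haemoglobin, which with no late UMI depend on the prior of 0.5 counts, went from -6.34 to -2.68 for Ptgds, -5.42 to -1.17 for Cldn11, -5.39 to -2.68 for Mal, -5.35 to -1.38 for Car2, -4.99 to -1.86 for Cryab and -4.45 to -1.56 for Sept4. For the 8 oligodendrocyte markers with enough UMIs the median log2 ratio was -3.36, and -0.74 without the cells with oligodendrocyte RNA.

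Besides the 4 haemoglobin genes, the lowest genes of the medium cells were Gclc, Esyt2, 4833427G06Rik, Tcp1, Lman1 and Hat1, each at 0 UMIs in 22 medium cells. In all other CD45- cells the haemoglobin genes had log2 ratios from -6.27 (Hba-a1) to -7.65 (Hbb-bt) in the medium sample. Gclc, the catalytic subunit of glutamate-cysteine ligase in glutathione synthesis, gave 40 UMIs in early cells, at most 6 of them in 1 cell, and was at least 4.63-fold lower in medium cells. Tcp1, a subunit of a cytosolic chaperonin, gave 32 early UMIs and was at least 3.70-fold lower. The highest were Iigp1, Wfdc2, Eaf1, Serpina3n, 2300009A05Rik, Mrtfb, Siah1a, Gnao1, Dtna and Ifrd1. Of these Iigp1, Wfdc2, Serpina3n, 2300009A05Rik, Siah1a and Dtna owed most of their medium UMIs to 1 cell, as with 21 of 26 for Wfdc2 and 16 of 19 for Serpina3n, while Gnao1 gave 27 UMIs in 7 cells (2.92, interval 1.87 to 4.17, and 4.19 without the cells with oligodendrocyte RNA). Without those cells Serpina3n went from 3.64 to 0.17, Dtna from 2.91 to 0.62 and Siah1a from 3.02 to 1.47, while Mrtfb went from 3.02 to 4.29. Iigp1 (20 medium and 0 early UMIs), Eaf1 (17 and 3), Mrtfb and Siah1a (each 15 and 5) also had just the minimum of 20 UMIs.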

How the data were processed

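The authors sequenced inDrop libraries of CD45+ and CD45- cells from 3 tumor samples and deposited 1 table of counts, UMIs per gene and cell (50262 genes, 20811 cells); per the labels the build is mm10, and the paper gives RapMap in bcbio-nextgen. Removal of ambient RNA and doublets is described for the authors' own analysis, and whether it came before the deposit is not given in the sources used here. Libraries, stage and sort were read from the deposited library sheet through the column names, and 0 columns were left unused.

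Cells were kept at 500 or more UMIs and genes and at most 20% mitochondrial UMIs. The cell rule, the gene lists and the named genes were chosen with earlier results of these data known. The astrocyte gate needed 4 UMIs over Slc1a2, Slc7a10, Ntsr2, Gjb6 and Acsbg1, and the choroid plexus gate 4 UMIs over the choroid genes of the rule, each with no human EGFR and at most 1 selecting UMI of the ependymal rule, and for astrocytes at most 2 UMIs of the choroid genes and at most 1 of Pdgfra and Cspg4. UMIs were summed per sample and class and tested with edgeR 4.0.16 (TMM, quasi-likelihood, Benjamini-Hochberg, tumor sample as a block, 2 residual degrees of freedom). Genes with few UMIs were left out by the filterByExpr function of edgeR, with the classes as groups. The samples pair because both classes come from the same tissue. Correlations of their deviations were 0.0794, -0.0219 and 0.112 against the astrocyte gate and 0.135, -0.0323 and 0.0319 against the choroid plexus gate. With the sample as a block, the p-values measure how the class difference varies over the 3 tumor samples, which are also the 3 stages. They do not measure the spread among tumors of 1 stage. Stages, with 1 sample each, were compared by CPM ratios with a prior of 0.5 counts and exact intervals, which like the Clopper-Pearson 95% intervals cover counting error only. A floor of 3 counts stood for 0.

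Named genes were the 5 selecting genes, the 4 members of each list with the highest CPM and up to 4 with the largest change, members asked for by role, the 10 genes with the largest change each way in each class comparison (same direction in every pair, at least 20 UMIs where higher), and the 10 highest and 10 lowest between stages whose interval left out 0. The edgeR test and the stage intervals were run on simulated counts with known changes. The counts for edgeR held no difference between tumor samples. Those for the intervals were Poisson draws at the medium and early depths. They do not bear on UMIs gathered in 1 cell or on the late comparison. Alternatives were DESeq2 1.42.0, other size factors, other gates, filters and thinning, each sample or library left out, and single runs. Leaving out cells with RNA of other classes, shared barcodes, the limit on ependymal UMIs in choroid cells (also for the ratio of both classes) and cells with human EGFR were chosen after seeing the data. Some items of the genotype and the gene lists are not reported here.

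Of the lists not described in the report, marker genes tested against the astrocyte gate were lower for 6 of 6 neuron, 4 of 4 fibroblast, 2 of 2 pericyte, 2 of 3 endothelial, 2 of 5 microglial and 2 of 3 tanycyte genes, and none were higher. Of these lists only a tanycyte gene could still be tested without the astrocyte gate cells of mixed RNA, and with DESeq2 0 of 3 tanycyte genes passed. Of 10 oligodendrocyte genes none passed with edgeR (log2 fold changes -1.89 to -0.62) and 2 were lower with DESeq2. All 10 were lower with at least 6 selecting UMIs, without the medium sample, or without ependymal cells with oligodendrocyte RNA (median -5.29), and 3 of 4 were higher (median 2.36) without the astrocyte gate cells of mixed RNA, so no direction is given. Python 3.11.15, scanpy 1.11.5 and scipy 1.17.1 were used.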

Additional observations from a re-analysis of the deposited data

Results flagged for a closer look

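In the CD45+ sort, which no comparison used, 4 of 11218 cells met the same UMI rule, a share of 0.0357% (exact Clopper-Pearson 95% interval 0.00972% to 0.0913%, with 0.0267% as the limit that a count of 0 allows). Of these cells 2 were early and 2 late. The 2 early cells had 26 and 19 such UMIs and at most 1 microglial UMI, and 1 late cell with 4 had 132 microglial UMIs. Whether they are sorted ependymal cells, shared droplets or free RNA was not tested.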

How the results depend on the processing

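Among the ependymal shares, the early value moved to 1.88% with no choroid plexus UMI allowed, 1.88% at up to 10% mitochondrial UMIs and 2.16% after thinning, and the medium value to 0.826% after thinning. The medium share was 0.297% in run 1, and the late share 0.173% in run 2 and 0.805% in run 3. With each library left out the shares ran from 2.68% to 2.96% early, 0.801% (without T28B) to 1.64% medium and 0.333% to 0.523% late. Against the astrocyte gate, leaving out cells with RNA of other classes gave 318 lower genes, and leaving out each sample gave 231 to 672 higher and 201 to 787 lower. Against the choroid plexus gate, the gate without its limit on ependymal UMIs gave 803 higher and 647 lower, every gene with a count gave 552 lower, and leaving out each sample gave 142 to 579 higher and 98 to 406 lower. Fewer genes were tested without those cells, and the causes of the other changes were not tested. Without the pairing of samples (no replicate block), 603 genes were higher and 644 lower than in the astrocyte gate and 493 higher and 354 lower than in the choroid plexus gate. With DESeq2 487 and 384, and 392 and 216, passed. Aqp4 (-0.97), Kcnj10 (-0.34), Sox9 (-0.042), Sox2 (-0.98) and Clu (-0.21) turned sign against the astrocyte gate when cells with RNA of other classes were left out.

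Between stages, a minimum of 10 UMIs gave 1079 higher and 944 lower genes in late cells and 1109 and 1086 in medium cells. A minimum of 50 gave 49 and 84, and 64 and 91. Within run 2 the medium comparison had 152 and 137, and no run held 10 late ependymal cells. With each library left out the counts ran from 267 to 466 higher and 237 to 464 lower in late cells, and from 308 to 484 and 298 to 535 in medium cells. The late comparison rested on 10 cells with 44288 UMIs of 1 tumor, which limits what it can show.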
